A study of Bos taurus with 8 samples.

Results

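The genes CD247, CD3E, CD3D, CD3G, LCK, CD4, GATA3, CD163L1, GNLY and NKG7, which are known from T cells and natural killer (NK) cells, were followed in bovine neutrophil preparations. They were read through all the microarray probes whose transcript accession maps to one of these genes. This gave 10 of the 12639 genes that could be named on the array, and 25 of its 43653 probes, with 5 probes for LCK, 4 for CD4, 3 each for CD3G and CD163L1, 2 each for CD247, CD3E, CD3D and GATA3, and 1 each for GNLY and NKG7. The genes were chosen by name with earlier results of these data known, so the number of them that moved is a description.

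Neutrophils came from jugular blood of female Holstein Friesian cows around calving, on day 7 after calving (C+7, 4 arrays) and on day 14 before the expected calving date (C-14, 4 arrays). No treatment or genotype separates the groups. The comparison asks how transcript levels in circulating neutrophils differ between the time points. How the neutrophils were purified is not given in the sources used here, and neither are the ages of the cows. The design text speaks of 3 cows, which is fewer than the 4 arrays per time point, and the cow behind each array is not given. Some arrays of a time point may therefore share an animal, which would make the p-values too small, the same cow may have been sampled at both times, which would make them too large, and the spread between arrays may be partly technical.

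The T cell receptor recognises antigen but signals through its CD3 chains, whose cytoplasmic tyrosine motifs are phosphorylated by the kinase LCK. LCK is held at the membrane by the co-receptors CD4 and CD8. In cattle, gamma delta T cells are abundant in blood and carry scavenger receptors of the WC1 family, to which CD163L1 is related. Neutrophils are myeloid cells and are not known for any of these receptor chains, so the transcripts are commonly read as marks of lymphocytes. In RNA from a whole preparation, fewer cells of a type and less RNA per cell cannot be told apart.

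Brightness differed widely between arrays. The C+7 arrays had 2201, 2268, 2746 and 387 probes well above background for replicates 1 to 4, and the C-14 arrays had 4142, 2365, 4486 and 761. Both replicates numbered 4 were thus dim, so values are given with and without them. All C+7 arrays lay on one slide and all C-14 arrays on another, each with its own scan, so slide, scan and time point cannot be told apart. The processed signal of C-14 replicate 3 carried a surface correction that no other array had, which put its ratio to the background-subtracted signal at 0.118 at the 1st percentile and 71.4 at the 99th percentile. A CD163L1 probe that was not well above background (A_73_P030646) read 385.5 processed and 1.75 background-subtracted there. Levels are therefore given as background-subtracted intensities, which can be negative. On the other 7 arrays both signals were equal for every spot above the lowest processed value. On C-14 replicate 3 the processed signals were 511.2 and 617.5 for the 2 CD247 probes, 311.2 for CD3E, 1052 for CD4, 297.7 for CD163L1, 64.0 for GNLY, 26.6 for the LCK probe detected most often and 15.3 for NKG7.

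Of the 25 probes, 14 were detected, meaning well above background, on at least 1 array and 11 on none, with background-subtracted signals of those 11 between -9.27 and 14.5. Each of the 14 was detected on at least 1 C-14 array, 6 of them also on at least 1 C+7 array, and 0 on C+7 arrays only. CD3D, the delta chain, had no detected probe, whereas the other 9 genes had at least 1. Per array, 5, 4, 3 and 1 member probes were detected on C+7 replicates 1 to 4 (20, 16, 12 and 4% of the 25), against 12, 9, 14 and 3 on C-14 replicates 1 to 4 (48, 36, 56 and 12%). Over all probes the detected share was 5.04, 5.20, 6.29 and 0.887% on the C+7 arrays and 9.49, 5.42, 10.3 and 1.74% on the C-14 arrays. C-14 replicate 2 thus detected 36% of the member probes at an overall share of 5.42%, between those of the C+7 replicates 2 and 3, which detected 16 and 12%. The part of array brightness in these counts was not tested.

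**Figure D1:**
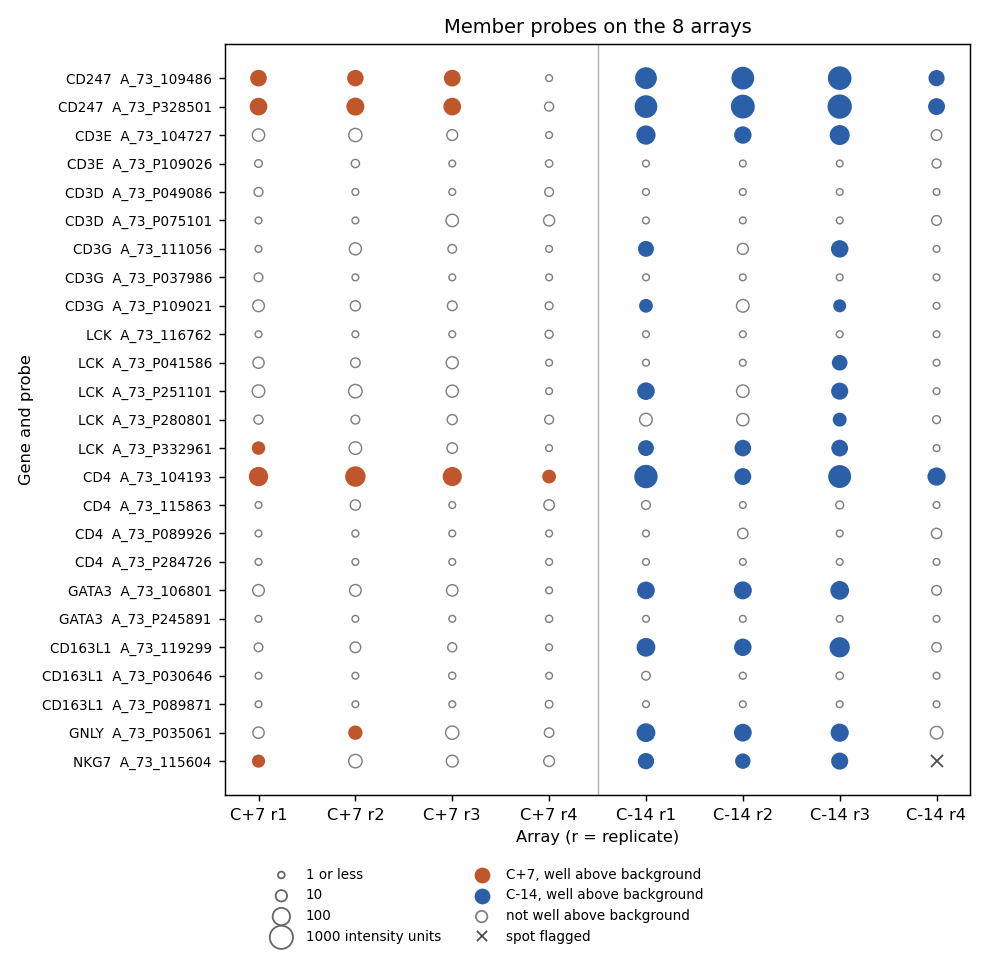
Detection of the 25 member probes (rows, grouped by gene) on each array (columns, the 4 C+7 arrays left of the 4 C-14 arrays). Filled circles are well above background, open ones are not, size follows intensity and a cross is a flagged spot; 14 probes have a filled circle on at least 1 C-14 array and 6 on at least 1 C+7 array.

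CD247, the zeta chain that carries most of the receptor's signalling motifs, was detected with both probes. Probe A_73_P328501 read 113, 127, 113 and 3.82 on C+7 replicates 1 to 4, against 838, 1326, 1575 and 83.3 on C-14 replicates 1 to 4. The second probe, A_73_109486, read 74.7, 70.4, 79.0 and -4.41 on the C+7 arrays and 579.0, 847, 1197 and 62.6 on the C-14 arrays. Both probes were well above background on 7 of the 8 arrays, the exception being C+7 replicate 4. In raw intensity the groups overlap through the dim C-14 replicate 4, which lies below C+7 replicates 1 to 3. Expressed as a percentage of the array's 75th percentile taken across the 115 probes that all 8 arrays detected, A_73_P328501 stood at 16.3, 20.0, 24.7 and 5.47% on the C+7 arrays and at 75.5, 357.1, 238.3 and 72.1% on the C-14 arrays. On this relative scale every C+7 array lay below every C-14 array, also for A_73_109486. Its C+7 values ran from -6.31 to 17.3% and its C-14 values from 52.2 to 228.1%. The share of all probes separated in this way over 8 arrays was not computed.

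CD3E, the epsilon chain that pairs with the gamma and delta chains, was detected with 1 of its 2 probes. Probe A_73_104727 read 14.2, 20.0, 7.94 and -10.8 on the C+7 arrays, against 208.9, 101.8, 276 and 7.21 on the C-14 arrays. It was well above background on C-14 replicates 1 to 3 and on none of the C+7 arrays, and the groups overlap in raw intensity only through the dim C-14 replicate 4. CD3G, the gamma chain, was detected with 2 of its 3 probes, each on C-14 replicates 1 and 3 only. Probe A_73_111056 read 0.565, 12.9, 3.20 and -3.44 on the C+7 arrays and 57.3, 8.40, 103.1 and -4.49 on the C-14 arrays, so that 2 C-14 arrays stood high and the other two lay among the C+7 values. The other detected CD3G probe, A_73_P109021, reached at most 11.3 on a C+7 array and 25.1 on a C-14 array. In the RefSeq gene order CD3E, CD3D and CD3G lie beside each other, and the 2 CD3D probes stayed at background on all 8 arrays.

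LCK was detected with 4 of its 5 probes. Probe A_73_P332961, the one found most often, read 22.4, 15.6, 7.02 and -7.87 on the C+7 arrays, against 56.7, 73.2, 78.1 and 0.623 on the C-14 arrays. C+7 replicate 1 and C-14 replicates 1 to 3 were well above background, and among these brighter arrays all C+7 values lay below all C-14 values. The other detected LCK probes were found on fewer arrays: A_73_P251101 on C-14 replicates 1 and 3, and A_73_P280801 and A_73_P041586 on C-14 replicate 3 only. On C-14 replicate 2 A_73_P251101 lay inside the C+7 range of -1.11 to 21.9, so the LCK probes differed among themselves on that array.

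CD4, the co-receptor of helper T cells, was detected with 1 of its 4 probes, and on all 8 arrays. Probe A_73_104193 read 218.0, 336.5, 200.2 and 25.1 on the C+7 arrays and 1098, 82.7, 897.6 and 139.1 on the C-14 arrays. The groups overlap, because C-14 replicate 2 lay below C+7 replicates 1 to 3 while C-14 replicates 1 and 3 lay above them. In relative signal CD4 stood at 31.4, 53.0, 43.7 and 35.9% on the C+7 arrays and at 98.9, 22.3, 135.7 and 120.4% on the C-14 arrays, so that C-14 replicate 2 was the lowest of all 8 for CD4 and the highest of all 8 for CD247. CD4 is also carried by some monocytes and macrophages.

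GATA3, a transcription factor of T cell development and of type 2 helper T cells, was detected with 1 of 2 probes. Probe A_73_106801 read 10.8, 11.0, 9.95 and -2.93 on the C+7 arrays, against 112.9, 126.5, 171.8 and 4.84 on the C-14 arrays. CD163L1 was detected with 1 of 3 probes. Probe A_73_119299 read 3.28, 7.36, 3.82 and -4.55 on the C+7 arrays, against 172.9, 103.8, 310.7 and 4.40 on the C-14 arrays. For both genes C-14 replicates 1 to 3 were well above background, no C+7 array was, and in raw intensity C-14 replicate 4 fell within the range of the C+7 arrays. In relative signal all C+7 arrays lay below all C-14 arrays for CD3E, GATA3, CD163L1 and GNLY. C-14 replicate 4 was at background for each of them, at 7.21, 4.84, 4.40 and 15.6. These undetected signals were divided by a 75th percentile of 115.5. The divisor was 458.2 to 694.1 on C+7 replicates 1 to 3 and 69.9 on C+7 replicate 4. The share of all probes separated over 8 arrays was not computed, so this order is a description only. The processed signal of GATA3 on C-14 replicate 3 was 20.9, a value that would stand near the C+7 arrays.

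GNLY and NKG7, a pore-forming granule protein and a granule membrane protein of cytotoxic lymphocytes, had 1 probe each. GNLY read 9.57, 30.9, 20.2 and 4.54 on the C+7 arrays, against 174.1, 118.0, 136.9 and 15.6 on the C-14 arrays. It was well above background on C+7 replicate 2 and on C-14 replicates 1 to 3. NKG7 read 19.7, 21.7, 11.8 and 7.69 on the C+7 arrays and 66.7, 47.0 and 89.2 on C-14 replicates 1 to 3, and its spot on C-14 replicate 4 was left out because the scanner software marked it as an outlier. NKG7 was well above background on C+7 replicate 1 and on those 3 C-14 arrays. Its groups do not overlap in raw intensity on the 7 remaining arrays, but they overlap in relative signal through the dim C+7 replicate 4, whose 11.0% lies within the C-14 range.

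**Figure D2:**
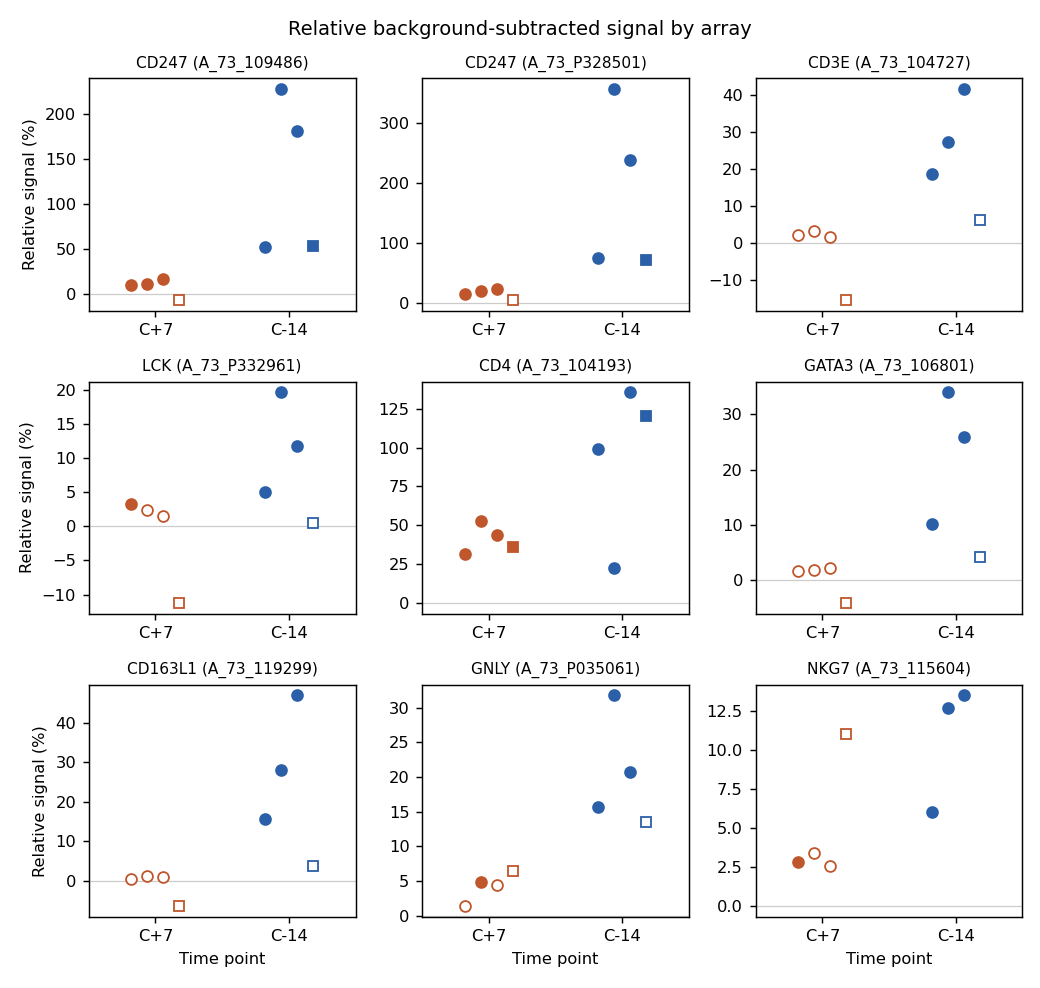
Relative signal of the 9 member probes tested over the 6 brighter arrays, with the C+7 arrays left of the C-14 arrays (background-subtracted intensity as a percentage of the array's 75th percentile). Circles are replicates 1 to 3, squares the dim replicates 4, and filled marks are well above background. Both CD247 probes and those of CD3E, GATA3, CD163L1 and GNLY separate the time points on all 8 arrays. C-14 replicate 4 is at background for all of these but CD247. LCK, NKG7 and CD4 do not separate, and the share of all probes that do was not computed.

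Over all 8 arrays, on log2 processed signal scaled by array, 475 probes were detected on every array of at least 1 time point and could be tested. None of the 475 passed an adjusted p of 0.05 (limma, Benjamini-Hochberg; 7 had an unadjusted p under 0.05), a background of 0%. The 3 member probes among them were those of CD247 and the detected CD4 probe. CD247 averaged -2.76 ± 0.92 on the C+7 arrays and -0.33 ± 1.68 on the C-14 arrays for A_73_P328501 (log2, SD, n = 4 each), a difference of -2.44 with a 95% confidence interval of -4.71 to -0.16 and a limma adjusted p of 0.983. A_73_109486 differed by -2.46 (interval -4.70 to -0.22, adjusted p = 0.983) and CD4 by -0.46 (interval -2.66 to 1.73, adjusted p = 0.983). The spread between arrays was wide in this fit, with a median SD of 1.59 over the tested probes, and the median difference of all tested probes was -0.20. The fit holds the surface-corrected signal of C-14 replicate 3. With background-subtracted signal raised to a common floor over the same 8 arrays, 0 of 475 probes passed. CD247 then differed by -2.33 and -1.83 (limma adjusted p = 0.278 and 0.458), with all its C+7 values at that floor.

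Without the 2 dim arrays, and with background-subtracted signal raised to a common floor, the median SD was 0.44 and 2225 probes were tested over 3 C+7 and 3 C-14 arrays. Each array has a dimmest scaled signal that still counts as detected, and the floor is the highest of these 6 values. Of the 2225 probes, 112 (5.03%) passed the limma threshold, so that 41 (1.84%) were called higher and 71 (3.19%) lower at C+7. With each array scaled by all its probes the split was 15 higher and 99 lower, and with a convolution background correction (normexp) it was 62 higher and 31 lower. Among the members, 9 probes of 8 genes were tested, of which 6 probes of 5 genes were called lower and 0 higher. The share called lower was 3.21% of the 1091 probes detected on all 6 arrays and 5.19% of the 693 probes detected on all C-14 arrays but not all C+7 arrays. The members' count is a description only. The 2 CD247 probes and CD4 were measured on all 6 arrays, while the other 6 probes passed the detection filter through the C-14 arrays alone, a filter that favours lower values at C+7. Their calls and p-values are therefore no independent support for a difference.

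CD247 had the largest difference of the members detected on both sides. A_73_109486 averaged -2.07 ± 0.28 on the C+7 arrays and 0.71 ± 0.61 on the C-14 arrays (log2, SD, n = 3 each), a difference of -2.77 (SE 0.35, 95% confidence interval -3.68 to -1.87, limma adjusted p = 0.0236). A_73_P328501 differed by -2.64 (SE 0.36, limma adjusted p = 0.0274). Among those 1091 probes they ranked 2 and 3 from the lowest difference, after ALOX15.

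CD3E, CD163L1 and GATA3 were at background on each C+7 array, so only a lower bound of their fold is available. The bound sets the mean of the C-14 arrays against the mean, per C+7 array, of the higher of its lowest detected signal and the probe's own signal. CD3E was at least 4.65-fold lower at C+7 (limma adjusted p = 0.00794), CD163L1 at least 4.57-fold lower (adjusted p = 0.00955) and GATA3 at least 3.48-fold lower (adjusted p = 0.0347). GNLY differed by -1.67 (SE 0.26, limma adjusted p = 0.0357) with all 3 of its C+7 values at the floor, although 1 of those arrays had detected it, and no bound was computed for it. For CD3E, CD163L1, GATA3 and GNLY, flooring gave the 3 C+7 values of a probe the same number (SD 0). Their p-values therefore hold no spread between C+7 arrays and may be too small. With a lower common floor the differences of CD3E, CD163L1 and GATA3 were -3.07, -3.90 and -2.96, against -2.03, -2.0 and -1.61 with the floor used here.

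The remaining members did not pass the threshold in the 6 arrays. NKG7 differed by -0.56 (SE 0.11, 95% confidence interval -0.84 to -0.29, limma adjusted p = 0.0564) and LCK probe A_73_P332961 by -0.63 (interval -1.44 to 0.17, adjusted p = 0.334). Both again had all C+7 values at the floor (SD 0), so their intervals hold no spread between C+7 arrays. CD4 differed by -0.11 with an interval of -2.22 to 2.0 (adjusted p = 0.966). Signal before flooring was lower on all 3 C+7 than on all 3 C-14 arrays for 8 of the 9 tested member probes, CD4 being the exception. The same separation was seen for 20.9% of 2204 probes with all 6 values, for 18.1% of the 1091 probes measured on all 6 arrays, and for 38.2% of 688 probes that passed the filter through the C-14 arrays alone.

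These calls rest on few arrays and on the processing. None of the 9 member probes was called with the replicate number as a block (lowest limma adjusted p 0.112), with the authors' series table or with no detection filter. Without C+7 replicate 2 or without C+7 replicate 3, 0 of the 9 member probes were called (lowest limma adjusted p 0.0552 and 0.0624), while 6 and 7 were called without C-14 replicate 1 and C-14 replicate 2. The CD247 calls were lost without C-14 replicate 3 or any C+7 replicate, with limma adjusted p between 0.0713 and 0.124, and their differences stayed below 0. With the dim C-14 replicate 4 added they differed by -1.39 and -1.89 and were not called (limma adjusted p = 0.181 and 0.101). GATA3 was lost in the same 4 cases, and GNLY without C-14 replicate 1, C-14 replicate 2 or any C+7 replicate (limma adjusted p 0.0895 to 0.135 and 0.0771 to 0.137).

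**Figure D3:**
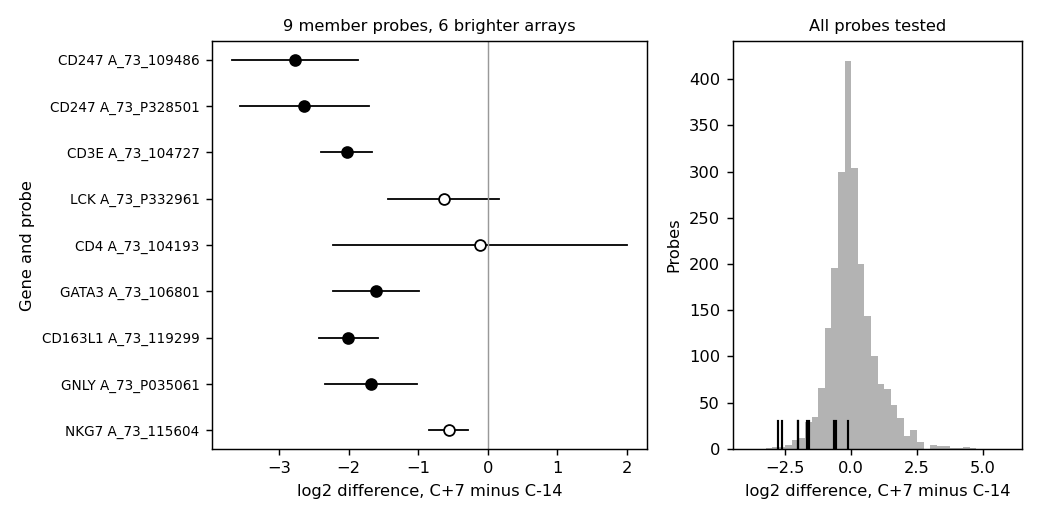
Differences of the 9 tested member probes over the 6 brighter arrays (C+7 minus C-14, log2, points with 95% confidence intervals, filled where the limma adjusted p is under 0.05), beside a histogram of all 2225 tested probes with black ticks at the members. The 2 CD247 probes lie at -2.77 and -2.64, and the interval of CD4 spans -2.22 to 2.0.

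Other genes of the same pathways were mostly at background. Of 33 genes of T cell receptor signalling, 29 were matched on the array with 63 probes, 21 of them well above background on at least 1 array. The 6 tested probes came from 5 genes, of which 3 probes (CD247 and CD3E) were lower and 0 higher at C+7, with a median difference of -1.33 against -0.05 over all tested probes. CD2, CD28, ZAP70 and CD8B stayed at background on all 8 arrays. Of 22 genes of T cell identity and homing, 3 probes were tested and GATA3 was the 1 called lower, with a median difference of -0.01. IL2RG, the shared cytokine receptor chain, differed by 0.60 (limma adjusted p = 0.342) and the transcription factor RUNX3 by -0.01 (SE 1.22, adjusted p = 1).

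Among 10 gamma delta T cell genes, 5 were matched and 2 tested. CD163L1 was lower, and WC1.3, another WC1 gene, differed by -0.13 (limma adjusted p = 0.653) after flooring. Unfloored, WC1.3 read -2.73, 1.98, -2.17 and -0.705 on the C+7 arrays and 36.8, 38.9, 46.5 and 3.67 on the C-14 arrays, well above background on C-14 replicates 1 to 3 only. Of 29 cytotoxic and NK genes, 22 were matched and 5 probes of 4 genes tested, of which 1 (GNLY) was lower and 0 were higher, with a median difference of -1.64. The 2 probes of SRGN, the granule proteoglycan that neutrophils also make, differed by -1.64 and -1.92 (adjusted p = 0.0604 and 0.0566), and CD244, a receptor of NK cells, by -0.63 (adjusted p = 0.343). PRF1, GZMB, KLRD1, KLRK1 and NCR1, which define cytotoxic granules and NK receptors, stayed at background on all 8 arrays.

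Markers of other blood cells were examined beside the members, as the summed relative signal of each list over the 8 arrays, with values below 0 set to 0. T cell markers summed to 39.9 to 59.4% on the C+7 arrays and 152.5 to 649.9% on the C-14 arrays, with 6 of 9 matched genes detected and CD2, CD3D and ZAP70 at background. NK cell markers summed to 10.4 to 71.9% on the C+7 arrays and 29.1 to 58.3% on the C-14 arrays, with 3 of 8 genes detected (GNLY, NKG7 and CTSW). On the 6 brighter arrays the sums ran from 39.9 to 59.4% at C+7 and from 181.5 to 649.9% at C-14 for T cells, and from 10.4 to 18.8% at C+7 and from 29.1 to 58.3% at C-14 for NK cells. Neither list overlapped between the time points there, and the NK cell sums overlapped over all 8 arrays. That overlap came through C+7 replicate 4, at 71.9%. No NK marker probe was detected on either replicate 4 or on C+7 replicate 3, so these sums hold undetected signal only. The T cell sum of 56.9% on C+7 replicate 4 also held 0 detected probes. These sums hold the members themselves. With the members left out, T cell markers summed to 0.475 to 2.23% on the brighter C+7 arrays and 2.21 to 11.3% on the brighter C-14 arrays, and NK cell markers to 6.17 to 11.8% at C+7 and 7.44 to 13.9% at C-14, so that both overlapped.

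The labelled cell type was visible on the arrays: 9 of 11 matched neutrophil genes were detected, and the sum of the list ran from 370.3 to 4919% on the C+7 arrays and from 277.6 to 2362% on the C-14 arrays. ITGAM and S100A8 stayed at background on all 8 arrays. On the 6 brighter arrays the neutrophil sums were higher at C+7 without overlap, at 3475 to 4919% against 628.4 to 2362% at C-14. These sums rest mostly on 1 probe of S100A12 (a calcium-binding alarmin), A_73_P050466. It read 23320, 26760 and 21260 on C+7 replicates 1 to 3 and 6123, 8261 and 9944 on C-14 replicates 1 to 3. No other probe of the list read above 458.2 there, so the order of the sums mainly describes that probe. Of the 7 neutrophil genes (9 probes) tested over the 6 arrays, 3 genes (4 probes) were called higher and 0 lower at C+7, beside 1.84% and 3.19% of all tested probes. The tested probes of LTF (lactoferrin) and MMP9 (gelatinase B) were at background on each C-14 array. They passed the filter through the C+7 arrays alone, a filter that favours higher values at C+7, so only bounds are given. Their calls are therefore no independent support for a difference. The share called higher among all probes that passed in this way was not computed. LTF was at least 21.7-fold and at least 7.43-fold higher at C+7 on its 2 tested probes, and MMP9 at least 9.21-fold on its tested probe. Another MMP9 probe, A_73_119412, was not tested and went the other way. It was well above background on C-14 replicate 1 alone, at 34.5, and read at most 4.17 on a C+7 array. S100A12 differed by 2.29 on A_73_P050466 and by 0.57 on another probe, which did not pass. TREM1 at 1.55, S100A9 at 0.71, CXCR2 at -0.06 and CXCR1 at -1.25 did not pass. The S100A9 probe was also at background on each C-14 array, so its 0.71 is a difference from the floor. Its bound was at least 3.43-fold higher at C+7 (limma adjusted p = 0.242).

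Single markers of monocytes and eosinophils were also called lower at C+7. Monocyte markers summed to 8.61 to 18.6% on the C+7 arrays and 30.1 to 97.9% on the C-14 arrays, with 2 of 6 genes detected, and the macrophage growth factor receptor CSF1R differed by -1.62 (SE 0.26, limma adjusted p = 0.0386). Of 7 eosinophil markers only 2 were matched on the array, and CCR3 stayed at background, so their sum rests mostly on ALOX15, a lipoxygenase. It ran from 2.72 to 9.29% on the C+7 arrays and from 11.1 to 150.6% on the C-14 arrays. ALOX15 was the only detected gene and had a difference of -3.02 (SE 0.15, limma adjusted p = 0.00272). B cell markers summed to 25.4 to 62.4% on the C+7 arrays and 26.2 to 121.1% on the C-14 arrays. CD79A, a chain of the B cell receptor complex, differed by -0.41 and -0.49 on its 2 probes, neither of which passed. Erythroid markers overlapped between the time points (38.1 to 148.6% on the C+7 arrays and 28.6 to 62.5% on the C-14 arrays), with HBA at 1.83 (adjusted p = 0.233). Basophil and platelet genes stayed at background throughout. The part of these other cells in the differences of the members was not tested.

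**Figure D4:**
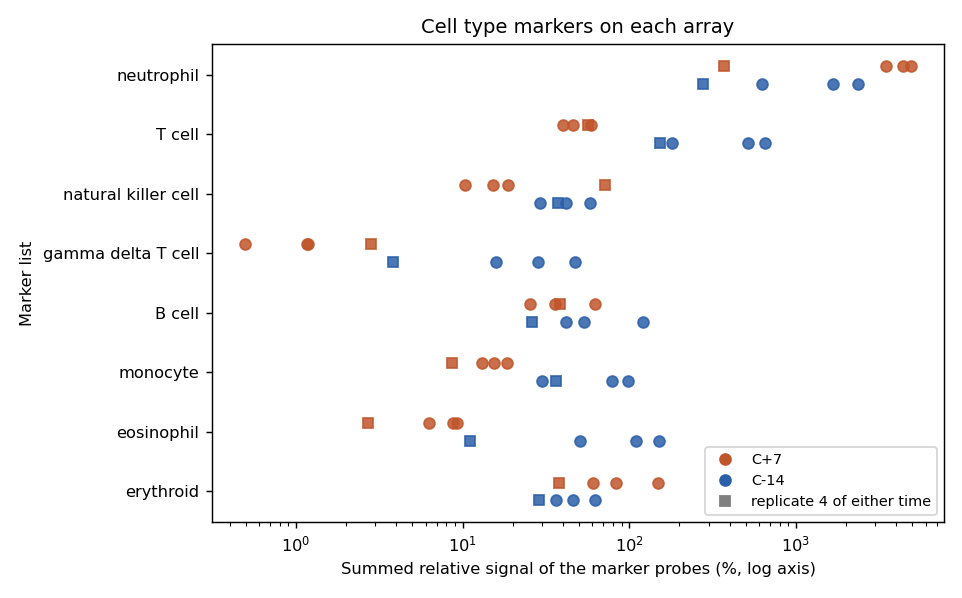
Summed relative signal of the marker lists (rows) on each array (log axis, percent of the array's 75th percentile), with C+7 drawn above C-14 in each row. The basophil and platelet lists are not drawn. T cell sums run from 39.9 to 59.4% at C+7 and from 152.5 to 649.9% at C-14, with the member probes included in them. Neutrophil sums overlap over all 8 arrays, through the dim C+7 replicate 4, and not over the 6 brighter ones, where they rest mostly on 1 S100A12 probe.

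The genes whose profile over the 6 arrays lay closest to that of CD247 probe A_73_P328501 were sought among 1779 probes detected on all 3 C-14 arrays. The measure was the root mean square difference of the log2 profiles, each centred on its own mean. The second CD247 probe came at 0.14, followed by ISG15 (0.22), SDSL (0.26), UBE2G1 (0.28), IFI30 (0.31) and CTSS (0.35) as the 5 closest named genes. Before CTSS, 1 probe with no symbol and 1 further probe of a gene already named were passed over. Other members were further away, with GATA3 at 0.54, CD163L1 at 0.56, CD3E at 0.59, GNLY at 0.64, LCK at 1.01, NKG7 at 1.1 and CD4 at 1.83. Except for CD4, these members had all 3 C+7 values at the floor, which limits the drop that their profiles can show. Their distances therefore depend on how dim the probes are and cannot tell how alike the transcripts are. SDSL, among the closest genes, was also at background on each of the 3 C+7 arrays.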

How the data were processed

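Neutrophil RNA from 8 samples was hybridised to 1-colour (Cy3) bovine arrays. The deposited scanner files hold intensity per spot from Feature Extraction, per the file headers in version 10.10.1.1 and per the submitters' processing notes in version 9.1. A deposited series table holds the authors' log2 values, whose scale and centring are not stated; it was matched to the scanner files by probe and used as an alternative.

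The members, the gene lists and the naming rule (all members, list genes past the threshold or with the 3 largest other differences, every tested marker of other cell types, and the 5 named genes with the closest profiles; some list genes are not reported here) were chosen with earlier results of these data known. Control and flagged spots were left out and spots of a probe averaged. Symbols came from RefSeq (assembly ARS-UCD2.0) by accession, naming 26832 of the 43653 probes. Each array was scaled by its 75th percentile over probes well above background on all arrays of the fit. A probe was tested if well above background on every array of a time point. limma 3.58.1 (R 4.3.3) with Benjamini-Hochberg adjustment over all tested probes was run on log2 processed signal (8 arrays) and on floored log2 background-subtracted signal (6 arrays with over 2000 detected probes), after tests on simulated data. The number of arrays limits the precision. Array replicate numbers were not used to pair the samples in the main fits, since the cow behind each array is not given. Alternatives were other scalings, background corrections and filters, the series table, array weights, a replicate block and leaving out each array.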

Additional observations from a re-analysis of the deposited data

Results flagged for a closer look

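In all, 27 groups of 4 values were examined: background-subtracted signals, scaled log2 processed signals and detected shares of probes. Of these, 3 held a value far from the rest, and chance would mark about 1 in 20 independent groups. The groups share arrays and probes, so they are not independent. All 3 flagged values were background-subtracted signals on C+7 replicate 4, the dimmest array. CD247 probe A_73_109486 read -4.41 there against 70.4 to 79.0 on the other C+7 arrays, and CD247 probe A_73_P328501 read 3.82 against 113 to 127. GATA3 probe A_73_106801 read -2.93 against 9.95 to 11.0.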

How the results depend on the processing

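Over 8 arrays the count of called probes was 0, and it was 1 with no detection filter, 15 with array weights and 0 to 1 with 1 array left out (1 without C+7 replicate 4). Both CD247 probes were called with array weights (limma adjusted p 0.0242 and 0.0475). Over the 6 brighter arrays the count of 112 became 5 with the series table, 50 with probes detected on every array, 1 with no filter, 12 with processed signal, 12 with C-14 replicate 4 added, 0 with a replicate block, and 171 with a lower common floor, an alternative chosen after seeing the data. Leaving out 1 array gave 4 to 167 calls, with 4 without C+7 replicate 3, 7 without C+7 replicate 2, 56 without C+7 replicate 1, 69 without C-14 replicate 3 and 167 without C-14 replicate 2. None of the 9 member probes was called with the series table, no filter or the replicate block (lowest adjusted p 0.112), nor any of the 3 tested with C-14 replicate 4 added. CD3E alone was called with processed signal (adjusted p 0.0494), and 3, 3 and 2 member probes were called with normexp, without C-14 replicate 3 and without C+7 replicate 1. Reversed signs arose for CD4, at 0.70 in the series table and from -1.07 to 0.47 with 1 array left out, and for NKG7, at 0.52 in the series table. The series table put the median of tested probes at 1.03, and normexp at 0.17. Same-numbered arrays correlated between -0.26 and 0.26 over the 6 arrays and between -0.26 and 0.58 over the 8. Differently numbered arrays of the 2 time points ran from -0.45 to 0.29 and from -0.61 to 0.53. These ranges overlap, so they cannot tell whether the numbers pair the samples. Where a count moved, the cause was not tested. A slide block could not be fitted, since each slide holds 1 time point.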

Other observations

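RUNX3, a transcription factor also found in myeloid cells, had the same order of C-14 arrays as CD4. It read 132.8, 349, 149.8 and 7.79 on the C+7 arrays and 1062, 33.6, 876.2 and 123.4 on the C-14 arrays, so that C-14 replicate 2 lay below C+7 replicates 1 to 3 while C-14 replicates 1 and 3 lay above them. RUNX3 was noticed after its values were seen.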
